A study of Mus musculus with 4 samples.

Results

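The B1 elements are short repeats of the Alu family, and the sites described here are adenosines of B1 elements in the 3′ UTRs of mouse genes that were read partly as guanosine in RNA of lung endothelial cells (ECs). Members were selected on measured values. A site of the deposited table was taken when its repeat was a B1 element, its annotation was a 3′ UTR, and it reached 5 reads, 3 of them altered, with an editing rate from 0.05 to 0.95, in 1 or more of the 4 libraries. The editing rate is the share of reads with the altered base. This gave 738 sites in 229 elements of 141 host genes, which were 3.05% of the 24200 sites that passed the same limits anywhere and 13.3% of the 5553 B1 sites in 3′ UTRs that the table lists. The limits treat the 4 libraries alike, so the same selection lies behind every background share given below. They do not separate edited sites from genomic variants, and the share of variants in the background was not tested.

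The ECs came from 2 male i-KO mice of strain C57/BL6, each from its own litter and 2 wk old, whose ADAR1 gene can be deleted by an inducible Cre recombinase. Cells of each mouse were cultured either with tamoxifen, which switches the recombinase on (TM), or without it (CON). The groups therefore share the floxed gene and the Cre, differ in tamoxifen and the deletion, and hold 2 libraries each, which pair by mouse: EC1 and EC2 name the mice, CON and TM the culture. Which promoter drives the inducible Cre is not given in the sources used here, and no tamoxifen-treated cells without the floxed gene were analysed here.

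ADAR1 is an enzyme that turns adenosine into inosine in double-stranded RNA, and sequencing reads inosine as guanosine. B1 elements are found in many copies in mouse genes, and copies that lie in opposite directions in the same transcript can fold back on each other into the double strand the enzyme needs. Inosine in such duplexes is known to keep the sensor MDA-5, encoded by Ifih1, from taking the cell's own RNA for that of a virus. The 3′ UTR follows the coding part of a transcript, so editing there leaves the protein unchanged.

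The sequences below are examples from elements with at least 9 sites, and other elements with as many or more sites are not shown. Each is a stretch of 30 bases written 5′ to 3′ on the strand of the gene, with DNA letters and mm10 coordinates, and capitals mark the adenosines that are sites. Bases were read from the GENCODE vM21 transcripts.
Slfn5, antisense B1_Mus2, chr11:82962592-82962621: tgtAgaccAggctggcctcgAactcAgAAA
Slfn5, sense B1_Mus1, chr11:82963202-82963231: ggcAcacAcctttAAccccAgaActcAgaA
Sppl2a, sense B1_Mus2, chr2:126892836-126892865: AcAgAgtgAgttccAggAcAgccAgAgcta
Gla, sense B1_Mus1, chrX:134588541-134588570: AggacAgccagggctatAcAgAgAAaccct
Exoc8, sense B1_Mm, chr8:124894111-124894140: AggccagcctgAtcAacAAggtgaAtttca
Apobec3, antisense B1_Mur2, chr15:79907536-79907565: ctactAgactaAgctggccttaAActctaA
Each stretch lies within 1 element of the named gene's 3′ UTR. The Slfn5 antisense stretch holds 7 of the 16 sites of its element, and the Sppl2a stretch holds 9 of 15. Not every adenosine of a stretch is a site: in the Gla stretch, 7 are capitals and others between them stay in lower case.

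The base of 718 sites could be read from the transcripts, and all 718 were adenosines on the gene strand. For the other 20 sites no base was found. Of the 738 sites, 712 lay in a 3′ UTR of GENCODE vM21 on the gene strand. The annotation by the authors and that of GENCODE therefore differ for a small number of sites.

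The targeted gene was read first in each library. The listed sites in exons 12 to 14 of Adar, which lie in the deleted part and are numbered in a transcript of 15 exons, numbered 3 in EC1 CON with a median depth of 145 reads and 0 in EC1 TM. In EC2 CON 1 listed site had 169 reads, and in EC2 TM 2 listed sites had a median of 65.5. In exon 15, the last of the exons the study floxed, depth went the other way: listed sites had a median of 99 reads for CON against 422 for TM of EC1, and of 156 against 835 for EC2. The gene count of Adar also rose, from 9 to 47 in EC1 and from 16 to 71 in EC2 (log2 fold change 1.87, SE 0.45, adjusted p = 0.00609 from edgeR). The check of the labels therefore rests on exons 12 to 14 alone, since exon 15 and the gene as a whole were read more often in TM. The depths come from listed variant sites alone. The marker sums over the whole lists were 1360 to 1710 CPM (counts scaled to the library's total on genes) for 13 endothelial genes, 477 to 560 for 8 fibroblast and smooth muscle genes, 82.6 to 120 for 8 leukocyte genes and 12.3 to 21.9 for 8 epithelial genes. Of these markers, 2 leukocyte genes and 1 epithelial gene were at 0 in every library. In bulk RNA, fewer cells of a type and less RNA per cell cannot be told apart, and neither can fewer cells with editing and less editing per cell.

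Members were read to a like depth in both CON libraries and more deeply in EC2 TM. At the listed sites the median depth of EC1 was 41 reads for CON and 45 for TM, while EC2 had 43 for CON and 76 for TM. A site is listed in a library only where an altered base was called, so a site that is not listed has the rate 0 in the table and no known depth. In EC1, CON listed 655 members and TM 512. In EC2, CON listed 689 and TM 610, and 424 members were listed in all 4 libraries. For 176 of the 226 members not listed in EC1 TM, other listed sites of the same element had a median depth of 29.75 reads, and for 112 of the 128 not listed in EC2 TM it was 45.25. Depth was thus present beside most of these sites.

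Fewer sites passed the limits in TM than in CON. They passed at 464 sites in EC1 CON against 206 in EC1 TM, and at 570 in EC2 CON against 309 in EC2 TM, although EC2 TM had the most reads. With EC2 TM thinned to the read total of EC2 CON, 270.7 sites passed on average over 20 draws. Members made up 37.3% of all 3′ UTR sites passing in EC1 CON (95% Wilson interval 34.65% to 40.02%) and 26.55% in EC1 TM (23.56% to 29.76%). In EC2 the share was 36.12% in CON (33.79% to 38.52%) and 28.04% in TM (25.47% to 30.76%), and the intervals cover counting error only. Of the members, 367 passed in CON alone, 60 in TM alone and 311 in both. Passing in CON alone favours a lower rate in TM but does not require it. A site in Rint1, for example, passed in EC2 CON alone, at 0.941, and had a rate of 1 in both TM libraries. Directions are therefore also given for sites that do not rest on passing in CON alone.

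**Figure D1:**
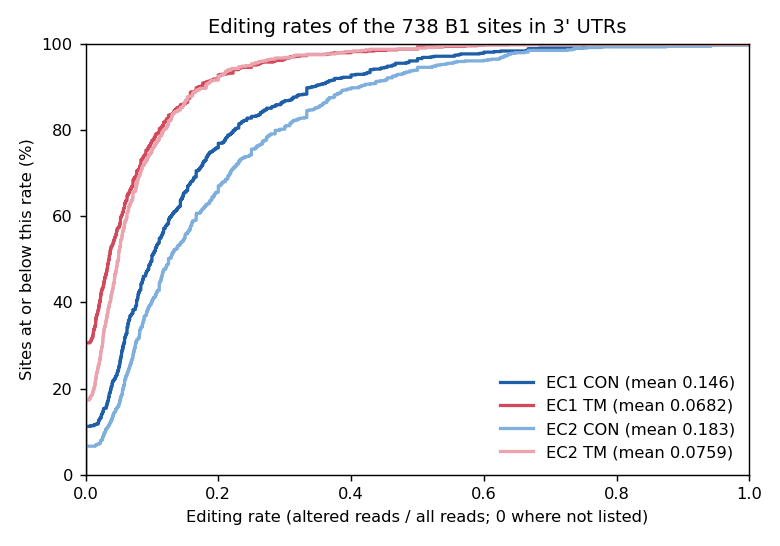
Cumulative share of the 738 sites (y axis, percent) at or below each editing rate (x axis, a fraction, 0 where a site is not listed), 1 line per library. The TM lines rise first: 8.13% of sites had a rate of 0.2 or more in EC1 TM and 8.4% in EC2 TM, against 24.1% in EC1 CON and 34.4% in EC2 CON.

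Editing of these sites was lower in the TM library of both mice. The mean rate over all members went from 0.146 in CON to 0.0682 in TM of EC1, and from 0.183 to 0.0759 in EC2, so both CON libraries lay above both TM libraries. The cumulative plot of rates shows this over the whole range. Over the 507 members that passed in CON or TM of EC1, the mean was 0.186 in CON and 0.101 less in TM. For the 629 members of EC2 it was 0.204 in CON and 0.119 less in TM. The mean difference was 0.11 ± 0.0127 (SD, n = 2 mice, exact sign permutation test, two-sided, p = 0.5, the smallest that 2 mice allow). What remained in TM was 45.9% of the CON rate in EC1 and 41.6% in EC2. These shares rest on sites chosen by reads of the same mouse, and a site that is not listed counted as 0.

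The direction was read again in the mouse that did not choose the sites. Of 418 members chosen in EC1 and listed with at least 5 reads in both libraries of EC2, 374 (89.5%) were lower in EC2 TM and 43 were higher. Of 406 members chosen in EC2, 335 (82.5%) were lower in EC1 TM and 68 were higher. At members chosen in the other mouse, 55.2% of the CON rate remained in TM of EC1 and 44.8% in EC2. Over all passing sites chosen in the same ways, 57.4% of 7753 and 53.1% of 7867 were lower. The mean rate of these background sites was 0.402 in EC2 CON, with 90.5% of it left in EC2 TM. In EC1 it was 0.389 in CON, with 94.7% left in TM. Even the members chosen because they passed in a TM library were mostly lower in TM of the other mouse, with 161 of 183 (88.0%) in EC2 and 207 of 245 (84.5%) in EC1. Among the 125 members that passed in all 4 libraries, 104 were lower in both mice and 3 were higher in both. At these 125, 56.9% of the CON rate remained in TM of EC1 and 47.4% in EC2.

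Sites of other kinds were also lower in TM, by other amounts. In B1 elements of introns the mean rate was 0.0790 lower in TM of EC1 and 0.0522 lower in EC2, which is 0.0218 and 0.0666 less than the change of the 3′ UTR members. For 3′ UTR sites outside repeats the difference was 0.0197 and 0.0325. Sites in B2 elements of 3′ UTRs, which numbered 147, differed by 0.129 and 0.179, more than the B1 members in both mice. The comparison of each of these with the members had the same sign in both mice, and its exact sign permutation test, two-sided, gave p = 0.5, the smallest that 2 mice allow.

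By the study's rule, a site differs when its rate is at least 0.05 higher in either library with the same limits on reads and at most 0.95 there. In EC1, 339 members were lower and 33 higher in TM, against 28.7% lower and 18.8% higher over all passing sites. In EC2, 438 members were lower and 35 higher, against 25.6% and 22.9% over all. In both mice, 226 members (30.6%) were lower, with a background of 7.35%, and 2 (0.271%) were higher, with a background of 3.92%. Among members listed with at least 5 reads in all 4 libraries, 164 were lower and 1 was higher. The rest of the 226 had a library that did not list the site or held fewer than 5 reads there. The background under that limit was not counted. By the same rule, 29.3% of the 147 sites in B2 elements of 3′ UTRs were lower in both mice and 0.68% higher. For B1 elements of introns these shares were 8.69% and 2.04%, and for 3′ UTR sites outside repeats 7.8% and 2.33%. A further 24 members went opposite ways in the mice, some of them through a rate of 0 where a library does not list the site. The higher members were a site in Gm12250, listed in TM alone at 0.128 of 102 reads in EC1 and 0.152 of 158 in EC2, and a site in 2810417H13Rik, at 0.0714 and 0.217 in CON and 0.333 and 0.316 in TM. These were named after their values were seen, and the second had 12 to 23 reads in each library. At the Gm12250 site the CON rate of 0 rests on no read count, so a rise in rate was not measured there. The gene count of Gm12250 was 0 in both CON libraries, 4 in EC1 TM and 1 in EC2 TM.

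The reads were tested site by site with edgeR's quasi-likelihood test on altered and reference reads, with the mouse as a replicate block and Benjamini-Hochberg adjustment over the 7407 sites that had at least 5 reads in all 4 libraries. Of the 422 members tested, 126 (29.9%) were called lower in TM at an adjusted p of 0.05, against 5.05% of all tested sites, and all 126 were lower in both mice. No member was called higher, against 0.365% of all tested sites, and at an unadjusted p under 0.05 there were 228 lower and 1 higher. With limma and the same block, 108 members were lower, against 4.04% of all tested sites, and none was higher, against 0.216%, and 98 of the 126 were also called. The reads tested also chose the members, and 36 of the 126 had passed the limits in CON alone. Of the 276 tested members that had passed in a TM library, 90 (32.6%) were called lower and 0 higher, against 4.34% and 0.371% of all tested sites that had done so. Of the 125 that had passed in all 4 libraries, 55 (44%) were lower and 0 higher, against 5.39% and 0.49%. The median log2 odds ratio of TM over CON was -1.31 for the members tested and -0.27 for all tested sites. Without the block, or with the newer variance estimate of edgeR 4, no member was called, and 170 and 214 were lower at an unadjusted p under 0.05. The called sites lay in 62 elements of 42 host genes, and their log2 odds ratios ran from -5.03 to -0.92. Of other kinds of site, the share called lower was 1.39% for B1 elements of introns, 7.80% for 3′ UTR sites outside repeats and 9.23% for B2 elements in 3′ UTRs. Their median log2 odds ratios were -0.46 on 935 tested sites, -0.17 on 436 and -1.28 on 65. The B2 median was thus near that of the members, although a smaller share was called.

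**Figure D2:**
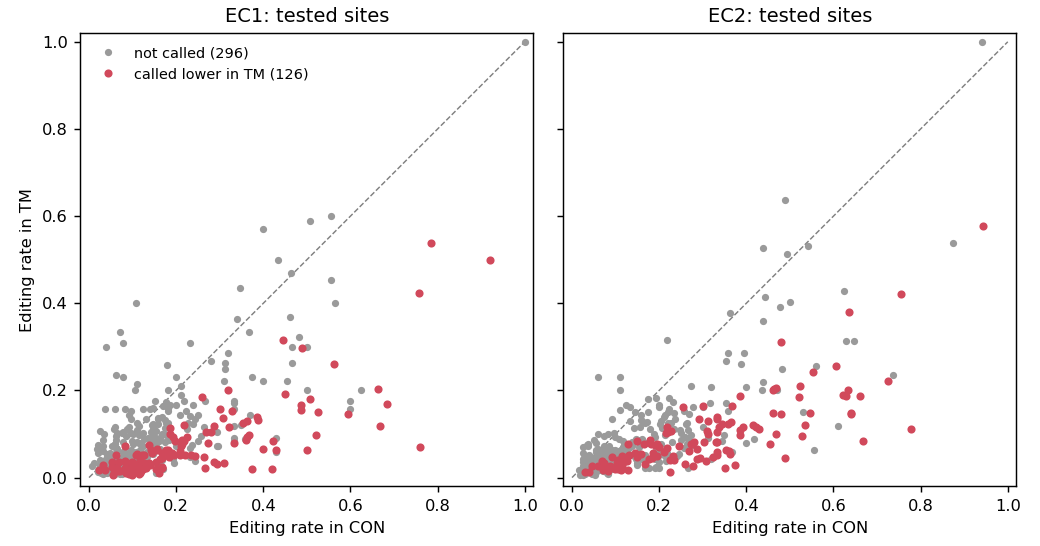
Editing rate in TM (y axis) against CON (x axis) at the 422 tested members, 1 point per site, for each mouse, with a dashed line of equal rates. The 126 sites called lower by edgeR (red) lie under the line in both mice, and most of the 296 others (grey) lie under it too.

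Fisher's exact test compares the 2 libraries of a mouse and not the conditions. In EC1 it called 40 of 403 members lower, where 0.898% of all 9800 sites tested were, and 0 higher, where 0.0612% were. In EC2 it called 92 of 510 lower against 2.37% of 10402 and 0 higher against 0.0865%. Members with an unadjusted p under 0.05 numbered 120 lower in EC1 and 223 in EC2, and 0 higher in both. Both mice called 27 members, all of them lower. With sites chosen in the other mouse, 36 of 406 members were called lower in EC1 against 1.07% of 7867 sites, and 89 of 418 in EC2 against 3.04% of 7753. In this test 0 members were higher, against 0.0763% and 0.142%, and at an unadjusted p under 0.05 there were 110 lower in EC1, 192 in EC2 and 0 higher in both.

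The smallest p-values belonged to sites in Tapbp, Slfn5, Exoc8 and Sppl2a. Tapbp encodes tapasin, which helps load peptides onto MHC class I. Its site at position 33928557 of chromosome 17 had a rate of 0.684 on 196 reads in EC1 CON and 0.726 on 215 in EC2 CON, against 0.169 on 1442 and 0.221 on 2239 in the TM libraries. Both CON rates stood far above both TM rates. The log2 odds ratio was -3.31 (SE 0.22, adjusted p = 3.44e-46 from edgeR with Benjamini-Hochberg adjustment, and 7.9e-08 from limma). Depth at this site was higher in TM, and the Tapbp gene count also was, as given below.

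Exoc8 encodes a subunit of the exocyst, which tethers secretory vesicles. Its site at position 124893879 of chromosome 8, read 109 to 244 times, went from 0.451 to 0.193 in EC1 and from 0.639 to 0.149 in EC2. The CON libraries differed from each other, and both stood above TM. Sppl2a encodes a protease that cuts within membranes. At position 126892851 of chromosome 2, a capital of the stretch shown above, it had the rate 0.667 in both CON libraries, 0.118 in EC1 TM and 0.0843 in EC2 TM, on 39, 42, 51 and 83 reads. The Sppl2a site at position 126892916 had the lowest log2 odds ratio of all called members, -5.03 (SE 0.63, adjusted p = 1.16e-12 from edgeR).

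Slfn5, a member of the Schlafen family induced by interferon, was the host with most sites. Its 3′ UTR on chromosome 11 held 39 sites in 4 B1 elements, 1 antisense and 3 sense. The mean rate over these sites went from 0.174 to 0.0574 in EC1 and from 0.194 to 0.0728 in EC2. With sites that are not listed taken as 0, all 39 were lower in TM in EC1 and 37 were in EC2. Tested were 31, of which 22 were called lower by edgeR. Within the antisense B1_Mus2 element, the rates at position 82962617 were 0.525 and 0.630 in CON and 0.151 and 0.188 in TM, and those at position 82962620 were 0.487 and 0.623 in CON and 0.166 and 0.189 in TM. These are the capitals near the end of the first stretch, and the position between them, 82962619, was edited far less, at 0.0519 and 0.102 in CON. In the sense B1_Mus1 element, position 82963228 stood highest, with 0.664 and 0.606 in CON and 0.203 and 0.255 in TM.

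The Slfn5 values also show what a missing entry can hide. At position 82962655 the rate was 0.407 of 167 reads in EC1 CON and 0.453 of 274 in EC2 CON, and neither TM library lists the site. The site 2 bases on, 82962657, had 879 reads in EC1 TM and 1645 in EC2 TM. A rate of 0 there was taken from the table and does not rest on a read count. The same holds for position 82963215, listed at 0.0976 in EC1 TM and not listed in EC2 TM.

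**Figure D3:**
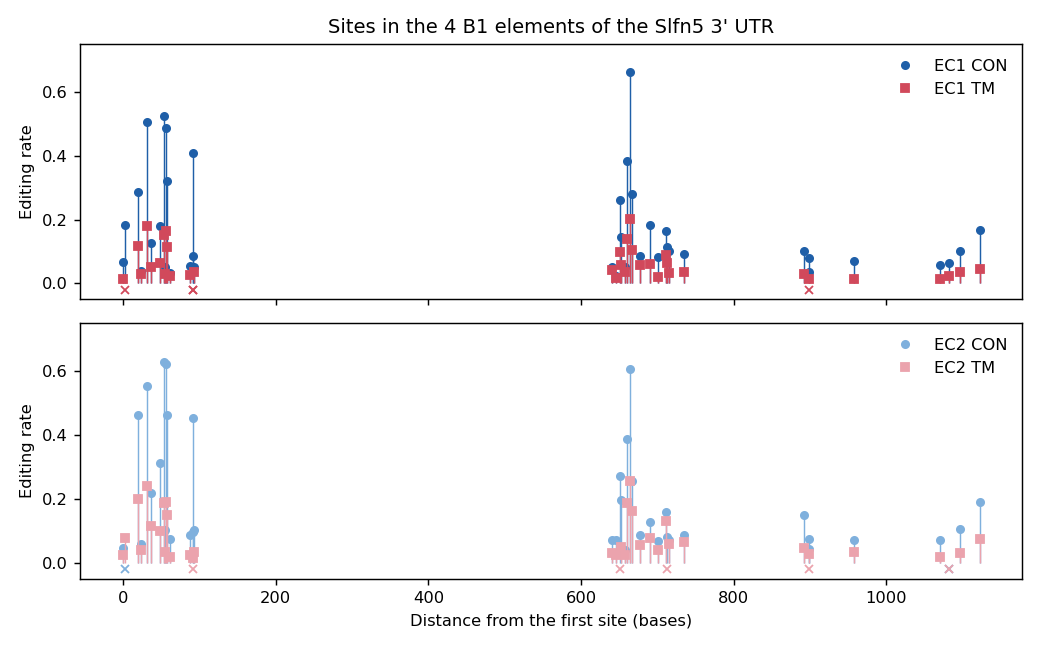
Editing rate (y axis) at each of the 39 Slfn5 sites against the distance from the first site in bases (x axis), with CON as circles and TM as squares, EC1 above and EC2 below; crosses under 0 mark sites that a library does not list. The 16 sites of the antisense element lie within 93 bases of the first site and the 15 of the next element start 641 bases on, and both hold the highest CON rates.

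Depth in Slfn5 rose with the gene. The median depth at its sites went from 158 to 688 reads in EC1 and from 239 to 902 in EC2. A smaller share of altered reads in TM could thus still be a larger number of them. At position 82963228, EC1 had 77 altered reads for CON and 121 for TM, and EC2 had 86 and 151.

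Sites were gathered in a small number of genes. The 23 host genes with at least 10 sites held 416 of the 738, or 56.4%, while 52 hosts had a single site. Following Slfn5 were Slc35e2, a member of a family of nucleotide sugar transporters, with 37 sites, Tbc1d24, which takes part in vesicle traffic, with 26, and Gla, the lysosomal alpha-galactosidase A, with 24. Gnl3l, a nucleolar GTPase, also had 24, Sppl2a had 21, and Exoc8 and the nucleolar protein gene Ncl had 20 each. Nol10, Sfxn2 and Iws1 had 19 each, and Trove2, whose product Ro60 binds small RNAs, and the co-chaperone gene Dnajc18 had 17 each. The mean rate was lower in TM in both mice in 22 of the 23 hosts, the exception being Car5b. Over all 141 hosts, it was lower in both mice in 99 and higher in both in 9.

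Hosts differed in how much was left. Sppl2a had the highest CON means of the hosts with at least 19 sites, 0.259 in EC1 and 0.334 in EC2, and its TM means were 0.0835 and 0.0610. Slc35e2 went from 0.145 to 0.0597 in EC1 and from 0.210 to 0.0561 in EC2. Gnl3l went from 0.166 to 0.0557 and from 0.217 to 0.0636, and all 24 of its sites were lower in TM in both mice. In Gla, the mean fell from 0.161 to 0.0772 in EC1, but was 0.148 for CON and 0.122 for TM of EC2, with 12 sites lower and 12 higher in EC2. Median depth in Gla was 19 and 19.5 reads in CON. By edgeR, calls numbered 15 of 23 tested sites in Gnl3l, 9 of 17 in Exoc8, 7 of 24 in Slc35e2, 7 of 13 in Sppl2a, 5 of 13 in Ncl and 5 of 6 in Tapbp, all lower.

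**Figure D4:**
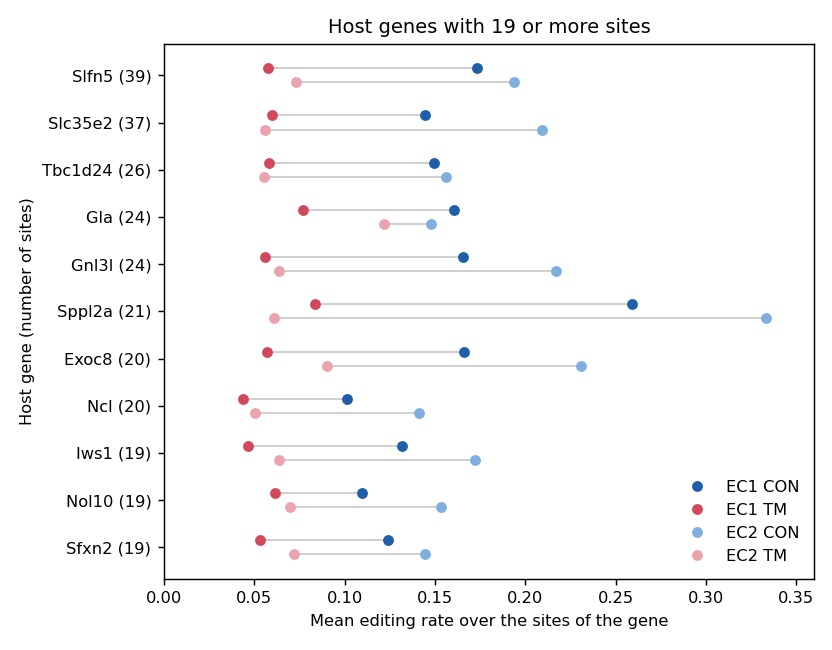
Mean editing rate (x axis, a fraction) over the sites of each host gene with at least 19 sites (y axis, number of sites in brackets) in the 4 libraries, with a grey line joining CON and TM of a mouse. Every gene shown lies lower in TM in both mice, and the gap is smallest for Gla in EC2, 0.148 against 0.122.

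The element was read as a unit by a rule like that of the study for repeats, under which an element differs in a mouse when a library has both more passing sites and a higher mean rate. Here the mean took in every site passing in at least 1 of the mouse's libraries, and a site that a library does not list counted as 0. In both mice, 87 of the 229 elements were lower in TM and 2, in Gm12250 and Sfxn2, were higher. Each of these had 1 passing site in each TM library, and in Sfxn2 it had 4 altered reads of 59 in EC1 and 3 of 55 in EC2. The Gm12250 site was not listed in CON, so its CON rate is not measured. Over all 7952 repeats with such sites, 6.49% were lower and 2.19% higher. The study's methods average over the sites they keep, and with the mean over the sites passing in each library by itself 81 elements were lower and 2 higher, against 6.36% and 3.57% of all repeats. Most elements held few sites: 88 had 1, the median was 2 and the highest number was 16. The 56 elements with at least 5 sites held 424 of the 738, and the mean rate of 51 of them was lower in TM in both mice. Sites of an element share its reads and are not independent of each other.

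Among the elements with most sites were those in Slfn5, Sppl2a, Gla, Iws1, Exoc8, Slc35e2, Nol10, Apobec3 and Gnl3l. The Slfn5 antisense B1_Mus2 element, from 82962557 to 82962680 of chromosome 11, had 16 sites and mean rates of 0.213 and 0.267 in CON and 0.0628 and 0.0908 in TM. The Sppl2a sense B1_Mus2 element, from 126892816 to 126892950 of chromosome 2, had 15 sites at 0.316 and 0.304 in CON and 0.0800 and 0.0734 in TM. Every one of its 15 sites was lower in TM in both mice. The deposited annotation places this element in the 3′ UTR of Sppl2a, and all its bases were found in GENCODE vM21 transcripts. The study's text instead placed it in an intron of Sppl2a, and reported editing in it by Sanger sequencing of wild-type EC RNA. No member lay in Nipa1, although the study reported editing by Sanger sequencing in a B1 element of its 3′ UTR.

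Apobec3, a gene of the cytidine deaminase family, which edits cytosine and not adenosine, kept much of its CON rate in TM, as some other hosts did. The mean rate of the 9 sites of its antisense B1_Mur2 element went from 0.198 to 0.156 in EC1 and from 0.212 to 0.145 in EC2. At position 79907541 of chromosome 15, the first capital of its stretch above, the rates were 0.556 and 0.477 in CON and 0.452 and 0.391 in TM, on 151 to 524 reads, and the site was not called. At position 79907571 the rate went from 0.338 to 0.364 in EC1 and from 0.395 to 0.286 in EC2, so the mice went opposite ways. The 1 site of Tor1aip2 kept its rate more fully, at 0.462 and 0.444 in CON and 0.470 and 0.415 in TM. Whether Apobec3 differs from other hosts was not tested.

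High rates were rare. Of the 489 members with at least 20 reads in both CON libraries, the median of the mean CON rate was 0.112, 216 were under 0.1 and 19 were at 0.5 or more. The highest was a site in Rint1, whose product acts in traffic between the ER and the Golgi, at 1 in EC1 CON and both TM libraries and 0.941 in EC2 CON, on 21 to 54 reads. It was the only member with a rate over 0.95 in a library with at least 5 reads. Its rate was not lower in TM in either mouse, and whether it is a genomic variant was not tested. Next was position 143755378 of chromosome 1 in Trove2, at 0.920 and 0.943 in CON and 0.5 and 0.577 in TM. Sites in Sppl2a, Tapbp, Fam32a and Slfn5 followed, and the Fam32a site at position 72223582 of chromosome 8 had 0.758 and 0.635 in CON and 0.424 and 0.38 in TM. A Soat1 site among the 19 was also not lower in TM, at 0.508 and 0.494 in CON and 0.590 and 0.513 in TM. Whether it is a genomic variant was not tested either.

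Many listed sites lay just outside the limits. The highest number of altered reads was 3 at 152 members, and at 285 listed sites just outside it was 2 with the other limits met. Mean rates inside went from 0.0803 to 0.0495 in EC1 and from 0.116 to 0.0395 in EC2, and outside from 0.0650 to 0.0465 and from 0.0712 to 0.0508. The highest rate lay between 0.05 and 0.06 in 59 members and between 0.04 and 0.05 in 52 sites outside.

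The mean rate was lower in TM of both mice in every B1 subfamily with members. B1_Mus1 had 194 sites in 51 elements and B1_Mus2 170 in 46, and then came B1_Mur1 with 82, B1_Mur3 with 67, B1_Mur2 with 64, B1_Mm with 63 and B1_Mur4 with 58. The older B1F2, B1F and B1F1 had 16, 15 and 9. Of the elements with any listed 3′ UTR site, 27.1% held a member in B1_Mur2 and 26.3% in B1_Mur1, against 6.56% in B1F, 9.62% in B1F1 and 11.1% in B1F2. In B1_Mus2 the mean rate of its sites went from 0.162 to 0.0690 in EC1 and from 0.199 to 0.0731 in EC2. In B1F it went from 0.11 to 0.0542 and from 0.140 to 0.0778. The share of sites lower in both mice ran from 13.3% in B1F to 44.4% in B1F1, each on few sites.

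Sites lay in elements of both directions. Of the 229 elements, 115 (50.2%) lay in the sense direction of their gene, and of all 1200 elements with a listed site 608 (50.7%) did. Sense elements held 396 sites and antisense elements 342. Mean rates of sense sites went from 0.142 to 0.0633 in EC1 and from 0.176 to 0.0715 in EC2, and those of antisense sites from 0.151 to 0.0739 and from 0.191 to 0.0810. The rule-based share lower in both mice was 31.3% for sense and 29.8% for antisense sites. Of the 141 hosts, 56 had at least 2 elements with members, and 51 had elements in both directions, which together held 562 of the 738 sites.

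Elements with members had a counterpart in the opposite direction more often than other listed elements, which is a description without a test. Each element was aligned with blastn to the opposite strand of the known 3′ UTR bases within 3000 bases of it, and a match with an expect value of at most 1e-05 was counted. Such a match was found for 127 of 220 elements with members (57.7%) and for 90 of 901 listed elements without (9.99%). With a CON depth of at least 20 the shares were 57.4% of 188 and 6.46% of 542. The share was 39.8% of 83 elements with 1 site and 81.5% of 54 elements with at least 5. The median length of known sequence was 3624 bases for the first group and 2843 for the second, and its part in the difference was not tested. The median distance to the match was 591 bases and the median identity 79.1%.

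Several of the most edited elements matched each other. The following stretches of 28 bases each are shown because they face each other in such matches. The second of a pair runs 5′ to 3′ on the same strand, so that its last base lies opposite the first base of its partner.
Slfn5, antisense element, chr11:82962637-82962664: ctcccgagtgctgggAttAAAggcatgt
Slfn5, sense element, chr11:82963205-82963232: AcacAcctttAAccccAgaActcAgaAg
Slc35e2, sense element, chr4:155621041-155621068: AgcctttAAtcccagcacttgggaAtcA
Slc35e2, antisense element, chr4:155621504-155621531: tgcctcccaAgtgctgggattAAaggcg
Gla, sense element, chrX:134588546-134588573: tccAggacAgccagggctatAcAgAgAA
Gla, antisense element, chrX:134589364-134589391: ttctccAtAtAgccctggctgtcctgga
Of the 28 facing positions, 22 were complementary in Slfn5, 25 in Slc35e2 and 26 in Gla. In Slfn5, 4 sites of the first stretch face a stretch with 8 sites, and the elements lie 516 bases apart with an identity of 86.8% over the match. The Apobec3 antisense element had no such match in the 1586 known bases around it. Apobec3 also holds a sense B1_Mur2 element with 1 site, from 79907736 to 79907861 of chromosome 15. That element had no match within the limit either.

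Elements with a match held more sites, 4.14 on average against 2.01. Sites in elements with a match went from a mean of 0.152 to 0.0653 in EC1 and from 0.189 to 0.0737 in EC2. Those without went from 0.131 to 0.0782 and from 0.162 to 0.0817. The rate was lower in both mice by the rule at 33.8% of 526 sites with a match and 21.9% of 187 without. The TM means without a match were thus not lower than those with one. The difference between the kinds of element has no test here.

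Within matches, sites lay opposite a cytosine more often than other adenosines of the same elements. Of 496 members in an aligned position, 135 (27.2%) faced C and 340 (68.5%) faced U. Of 1677 adenosines that are not listed, 103 (6.14%) faced C and 1396 (83.2%) faced U. Listed sites that are not members lay between these, with 12.2% of 849 facing C. A match is an alignment of letters and not a measured structure.

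The bases beside the edited adenosine differed from those beside other adenosines of the same elements. The base before a site was G in 8.77% of 718 members and in 29.7% of the 5090 adenosines that were not listed, and it was T in 35.0% of members and 13.7% of the others. The base after was G in 46.0% of members and 33.2% of the others. The mean rate was also lowest where G came before the site, at 0.111 in EC1 CON and 0.145 in EC2 CON, and highest after T, at 0.169 and 0.208. After C the means were 0.141 and 0.184, and after A 0.133 and 0.157, so both CON libraries had the same order. In TM, rates after T were 0.0746 and 0.0840 and after G 0.0625 and 0.0632. In the stretches shown, many capitals follow c, t or another A.

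Along the element, sites were gathered away from its end. In elements of at least 120 bases, sense elements had sites at 22.9% of the adenosines of bases 21 to 40, counted from the start of the element in its own direction, 11.2% in bases 1 to 20 and 1.88% in bases 121 to 140. Antisense elements had sites at 17.03% of the adenosines of bases 81 to 100 and 1.55% in bases 1 to 20. In sense elements, sites of bases 21 to 40 went from 0.174 to 0.0606 in EC1 and from 0.210 to 0.0727 in EC2.

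**Figure D5:**
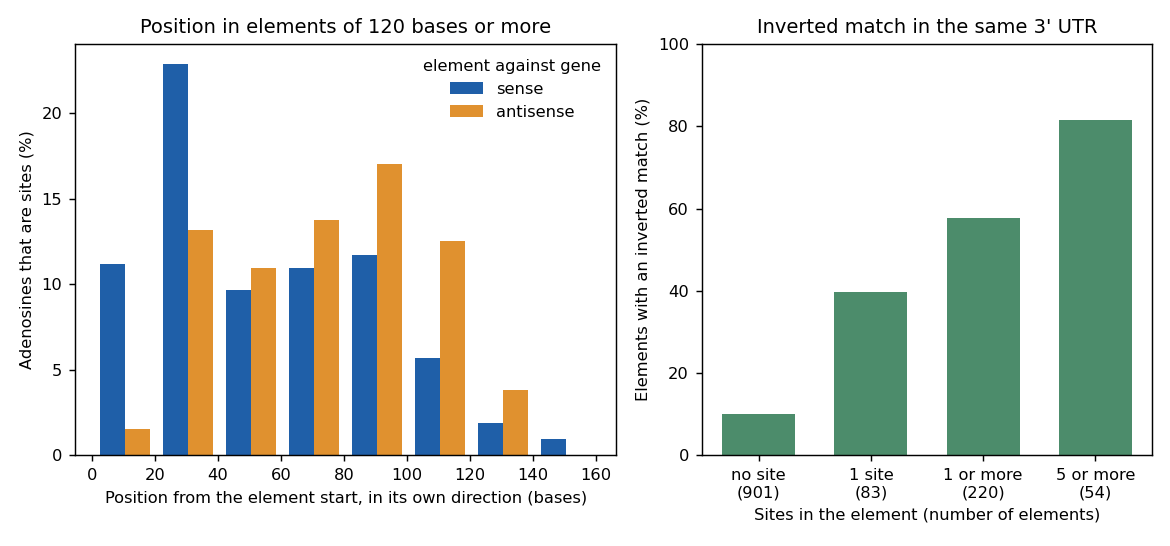
Left, percent of adenosines that are sites (y axis) by position along elements of at least 120 bases (x axis, bins of 20 bases from the element's start), for sense and antisense elements. Right, percent of elements with an inverted match in the same 3′ UTR (y axis) by number of sites, from 9.99% of 901 elements with none to 81.5% of 54 elements with 5 or more.

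The expression of the host genes was read in the gene counts. Of the 141 hosts, 77 passed the filter on low counts of edgeR, and at an adjusted p of 0.05 (Benjamini-Hochberg over all genes) its quasi-likelihood test found 5 of them higher and 1 lower in TM, where 4.39% of all 7899 genes tested were higher and 3.35% lower. The median log2 fold change was -0.02 for the hosts tested and 0.00 for all genes, and 17 hosts had an unadjusted p under 0.05. With the mouse as a replicate block, 6 hosts were higher and 4 lower, where 7.6% of all genes tested were higher and 7.39% lower. Gene counts totalled 1095488 to 1778732 per library and were 0.823% to 0.858% of all rows of the count tables. Reads assigned to no gene feature were 92.8% to 93.9%. This limits more than precision, and how fully the counts measure the named genes was not tested. The same holds for the marker sums and the gene count of Adar above.

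The hosts called higher were Dtx3l, Slfn5, Abl2, Tor1aip2 and Tapbp. Dtx3l encodes a ubiquitin ligase that works with PARP9, and its counts went from 101 to 550 in EC1 and from 132 to 935 in EC2 (log2 fold change 2.29, SE 0.30, adjusted p = 2.99e-06 from edgeR). For Slfn5, 32 counts became 160 in EC1 and 38 became 261 in EC2 (log2 fold change 2.21, SE 0.34, adjusted p = 2.63e-05 from edgeR). Abl2, a tyrosine kinase, went from 76 to 220 and from 72 to 293. Tapbp went from 226 to 431 and from 196 to 614 (log2 fold change 0.96, SE 0.29, adjusted p = 0.0331 from edgeR) and did not pass with any library left out, at an adjusted p of 0.08 to 0.23. Tor1aip2 went from 1684 to 5601 and from 1997 to 8453. It did not pass in edgeR without EC1 TM (adjusted p = 0.106) or without EC2 TM (adjusted p = 0.124). Without either of these TM libraries, 3 hosts were called higher. Nt5dc3 was lower, from 59 to 13 in EC1 and from 71 to 13 in EC2 (log2 fold change -2.65, SE 0.43, adjusted p = 7.1e-05 from edgeR).

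Among the other hosts with at least 19 sites, Slc35e2, Gla, Sppl2a, Exoc8, Ncl and Iws1 were tested and did not pass. Exoc8 went from 157 to 167 counts in EC1 and from 197 to 219 in EC2 (log2 fold change -0.22, SE 0.30, adjusted p = 0.766 from edgeR). Slc35e2 went from 255 to 218 and from 163 to 277 (log2 fold change -0.09, SE 0.30, adjusted p = 0.926 from edgeR). Sppl2a stayed at 10 in EC1 and had 15 against 17 in EC2. Gnl3l, Tbc1d24, Nol10 and Sfxn2 had at most 10 counts in every library and were not tested, although the median depth at Gnl3l sites was 102 to 170 reads.

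Of the lists of genes around this pathway, few members were hosts. Among 55 interferon-stimulated genes, 45 were tested, and 41 were higher in TM and 0 lower. Over all genes tested, 4.39% were higher and 3.35% lower. Of the 55, 2 held sites, Dtx3l and Slfn5. Hosts outside the list, such as Tapbp and Tor1aip2, do not enter this count. Dtx3l had 2 sites, both in sense elements and with mean rates of 0.0712 and 0.0489 in CON and 0.0190 and 0.0179 in TM. Of 32 genes of RNA sensing and editing, 19 were tested and 9 were higher, and none was a host. None of 18 genes for proteins that bind double-stranded RNA was a host, and of the 14 tested none was called by edgeR.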

How the data were processed

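Total RNA of 4 EC cultures was depleted of ribosomal RNA and sequenced. Per the labels and the study's methods, the authors used Trimmomatic 0.38 for trimming and STAR 2.6.1a for alignment to mm10, and they counted reads per gene with HTSeq 0.11.2 under default settings, and deposited raw counts. The authors called variants with BCFtools, kept A-to-G changes on the gene strand (T-to-C on minus-strand genes), annotated repeats, and deposited reference and altered read counts and the editing rate as a fraction per library. The table's column prefixes were tied to libraries through a supplementary site list, where values were equal at 1998 of 1998 shared sites.

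The members, gene lists and tests were chosen with earlier results of these data known. Sites were tested with edgeR 4.0.16 (quasi-likelihood, the variance estimate used before version 4, chosen because the newer one called no changed site in simulated data, and 1 spread shared by all sites), limma 3.58.1 and Fisher's exact test. The replicate number marks the mouse, and deviations of same-numbered libraries correlated with r = 0.559 over 7407 sites and 0.163 over 7899 genes. Gene counts were tested with edgeR (filterByExpr, TMM), with DESeq2 1.42.0, the block, no filter on low counts and each library left out as alternatives. Adjusted p-values use Benjamini-Hochberg at 0.05. The library kit keeps strand and HTSeq ran with default settings, and 0.823% to 0.858% of all rows of the count tables fell on genes, whose cause was not tested. Bases came from GENCODE vM21 transcripts, with element starts taken as counted from 0, and inverted matches from blastn 2.17.0. Other alternatives were depths of 10 and 20, 5 altered reads, rates of 0.10 to 0.90, other weights, a difference of 0.10 and 2 sites per element. After the data were seen, sites chosen in the other mouse and other means over an element were added. Work on sites used Python 3.11.15, pandas 2.3.3, numpy 2.4.6 and scipy 1.17.1, in R 4.3.3 for the tests. The site tests with edgeR, limma and Fisher's exact test and the edgeR test of genes were tested on simulated data.

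Host genes were named when they held the elements or genes with most sites, when the study sequenced their 3′ UTR element, when they held the called sites with the smallest p or the sites of highest CON rate at a depth of 20, or when a list held them. A gene that this rule names is not reported here. Car5b, Gm12250, 2810417H13Rik, Abl2, Tor1aip2, Nt5dc3, Soat1 and Ttbk2 were named after their values were seen.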

Additional observations from a re-analysis of the deposited data

Results flagged for a closer look

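The antisense B1_Mus1 element of Gla, with 9 sites, went opposite ways in the mice: its mean rate was 0.151 higher in CON than in TM of EC1, and in EC2 the difference was -0.0158. The CON libraries read it at a median of 25 and 21 reads. The 11 sites of Car5b, a host of 3 elements, had a difference of CON minus TM of -0.0033 in EC1 and 0.176 in EC2, with a median depth of 8 reads in EC1 TM and 16 in EC2 TM. Of all members, 24 passed the rate difference in opposite ways in the mice, 4 of them in Ttbk2. Some of the 24 took a rate of 0 where a library does not list the site. The Slfn5 site at position 82962566, for example, was not listed in EC1 TM or in EC2 CON. The difference between the mice was not tested in any of these.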

How the results depend on the processing

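The mean difference kept its sign under every alternative run. With at least 5 altered reads, 113 sites passed in EC1 TM and the mean difference was 0.127 in EC1 and 0.1354 in EC2. With rates of 0.10 to 0.90, 123 sites passed in EC1 TM and 162 in EC2 TM, and the difference was 0.1267 and 0.1546. With each element at the same weight it was 0.08324 and 0.102, and weighted by depth it was 0.1017 in EC2. Sites lower in both mice fell from 226 to 131 at a rate difference of 0.10 and to 164 with 5 reads in all 4 libraries. Sites higher in both fell from 2 to 1 at a depth of 20 and at 5 altered reads. They did so too with 5 reads in all 4 libraries and at a difference of 0.10. Elements higher in both fell from 2 to 1 with 2 sites per element, at 5 altered reads, with rates of 0.10 to 0.90 and with the mean over all members. Stricter limits keep fewer sites by their construction. The edgeR count of 126 members lower fell to 0 without the replicate block and 0 with the newer variance estimate, an alternative added after seeing the data, and the cause was not tested. With each library left out (without the block, since none of the spread could be estimated with it), the count was 0 to 0, with 78 to 130 at an unadjusted p under 0.05. With depths of 10 and 20 it was 136 and 141. Host genes called lower numbered 4 with the replicate block and 2 in DESeq2, against 1, and 1 to 2 with each library left out, and those called higher 3 to 5. The lone library of an arm is then assumed to vary like the others. With 2 mice, depth at single sites and sites that are not listed limit what can be shown.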
